A study of Mus musculus with 11 samples.

Results

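The genes described here are 34 markers of endothelial cells, the cells that line blood and lymph vessels: most are expressed by endothelium in general, and a few mark the sinusoid, the wide leaky vessel of the bone marrow. They were chosen by name, with earlier results of these data known, so their shares beside those of all genes are a description. Each name was found once in both deposited tables, so that 34 of 34 were measured. The table of the ANXA2 knockout held 19259 genes and that of the ANXA5 knockout 19801. The RNA came from untreated primary stromal cells of the mesenchymal kind, taken from the bone marrow of C57/BL6 mice. Of the 11 libraries, 4 were from wild type mice, 3 from ANXA2 knockout mice and 4 from ANXA5 knockout mice. The labels give neither the way each knockout was made, nor whether it was limited to a cell type, nor the age of the mice. Each knockout was compared with the same 4 wild type libraries in a table scaled on its own, so values of different tables are not on a common scale. The labels do not say that the libraries of a group came from separate animals or cultures, so a p-value here reflects the spread of these samples, part of which may be technical.

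Endothelial cells are held together by VE-cadherin and claudin-5 and are marked by the adhesion molecule PECAM1. They grow and survive through receptor tyrosine kinases: the VEGF receptors, encoded by Flt1, Kdr and Flt4, and the angiopoietin receptor TEK with its relative TIE1. Transcription factors of the ETS family such as ERG and of the SOX family such as SOX7 and SOX18 keep their identity. In the bone marrow, sinusoids carry scavenger receptors such as stabilin-2 and fenestral diaphragms built from PLVAP, and they lie beside stromal cells, while arterioles and capillaries carry other genes.

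Depth over the table genes was 23.3 to 29.1 M reads per wild type library, 26.1 to 32.0 M per ANXA2 knockout library and 27.0 to 35.7 M per ANXA5 knockout library. Values are normalised reads, that is, the read count of a gene divided by a size factor of the library. Anxa2 stood at 7159 to 10427 normalised reads in the ANXA2 knockout and at 27947 to 31163 in the wild type. Anxa5 stood at 2295 to 2426 in the ANXA5 knockout against 23423 to 27595 in the wild type. Stromal markers such as Col1a1, Pdgfra, Pdgfrb and Lepr were present in every library, and 11 of 11 were measured. Markers of macrophages (13 of 13), neutrophils (10 of 10), erythroid cells (10 of 10) and B or plasma cells (8 of 8) were in the tables as well. Their summed levels in the wild type of the ANXA5 table were 85038 to 129122, 321005 to 573256, 17976 to 62548 and 14258 to 18700 normalised reads, in this order. The RNA thus held transcripts of blood cells beside those of stroma. No marker of any list was at 0 in any library, but this carries no weight. Genes at 0 were found only in wild type library 4 of the ANXA2 table (188 genes) and wild type library 3 of the ANXA5 table (412 genes). In such mixed RNA, fewer cells of a type and less RNA per cell cannot be told apart. The 3 ANXA2 knockout libraries are called 1, 3 and 4 after their columns, whose numbers differ from those of the titles.

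The 34 endothelial markers took a small part of the reads of these libraries. Such a share of chosen genes does not measure how much of the RNA was endothelial. The 34 genes together took 0.0512 to 0.0663% of the reads of a wild type library, 0.0579 to 0.0674% of an ANXA2 knockout library and 0.0772 to 0.0962% of an ANXA5 knockout library. Every gene of the 34 had at least 1 read in every library, as did nearly all genes of these tables, the lowest being Cyyr1 with 1 read in wild type library 1. Set per kilobase of exon, with exon lengths of GENCODE vM21, the highest mean level in the wild type was that of Ramp2, a subunit of adrenomedullin receptors, at 1297 normalised reads per kilobase. Plvap, the protein of fenestral diaphragms, followed at 667, the angiopoietin receptor gene Tek at 527 and Eng, which encodes the TGF-beta co-receptor endoglin, at 450.2. The sphingosine-1-phosphate receptor gene S1pr1 was the next at 211. Most genes that define the endothelium lay far lower on this scale: Pecam1 at 95.4, the VEGF receptor gene Kdr at 57.4, the VE-cadherin gene Cdh5 at 27.5 and Flt1 at 11.8, with Cyyr1 the lowest at 1.20. Ramp2, Eng, Tek and S1pr1 are also known from cells other than endothelium, so their level does not measure endothelium alone.

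The wild type libraries differed among themselves in these genes. Wild type library 1 was the lowest of the 4 in 29 of 34 genes, against 31.2% of all genes tested, and the lowest of all 8 libraries of the ANXA5 table in 28 of 34, against 23.2%. In the ANXA2 table it was the lowest of all 7 libraries in 24 of 34, against 20.7%. The median over the 34 genes of the level relative to the median wild type library was 46.0% in wild type library 1, 100.2% and 101% in libraries 2 and 3 and 134% in library 4, all in the ANXA5 table. Library 1 held between 8.36% (Cyyr1) and 140.1% (Tek) of the mean of the other 3 wild type libraries. The VE-cadherin gene Cdh5 stood at 17.5% of that mean, the claudin gene Cldn5 at 16.2%, the scavenger receptor gene Stab2 at 17.5% and the lymphatic and sinusoidal VEGF receptor gene Flt4 at 14.4%. Ramp2, Tek, Clec14a, Ecscr and Lyve1 were not low there. The summed markers of stroma, pericytes, macrophages, neutrophils, megakaryocytes, erythroid cells, osteoblasts and lymphatic endothelium were also lowest in wild type library 1 among the 4 wild type libraries. The lymphatic list shares Flt4 and Lyve1 with the 34 genes. The part of these cell types in the low level of the 34 genes in library 1 was not tested. The summed markers of blood stem cells and progenitors, adipocytes and arterial endothelium and the sum of further endothelial genes (103049 normalised reads against 79900.4 to 99034) were instead highest there. Such a sum follows its most abundant genes. Among the further endothelial genes these were Cd34, Il6st and Sparcl1, with wild type means of 36780, 16879 and 15539, against 45.2 for Nos3 and 101 for Podxl. The sum therefore does not show how the less abundant endothelial genes stood in library 1. For the 34 genes, a log2 difference from wild type given below has its value without wild type library 1 beside it where the sign changed or the size moved by over 1.5 times. For the genes and medians of the other lists, values without that library are not given, so their dependence on it is not shown.

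Within the wild type, 15 of 34 genes had libraries 1 and 2 both below libraries 3 and 4, against 25.3% of all genes tested in the ANXA5 table. They included Flt4 (37.1, 125, 325 and 323 normalised reads in libraries 1 to 4), Stab2 (110.1, 321, 777 and 787), the von Willebrand factor gene Vwf (149, 195, 433 and 681) and Eng (1336, 1579.7, 2221 and 2152). Xist, a long RNA that coats the inactive X in females, stood at 2000.0 and 2186 normalised reads in libraries 1 and 2 and at 1.29 and 1.05 in libraries 3 and 4. In ANXA5 knockout libraries 1 to 4 it stood at 783, 2.07, 1676 and 528. In the ANXA2 table Xist stood at 652, 226 and 203 in knockout libraries 1, 3 and 4, against 1829, 1997, 1.16 and 0.96 in wild type libraries 1 to 4. Whether these genes follow Xist was not tested.

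**Figure D1:**
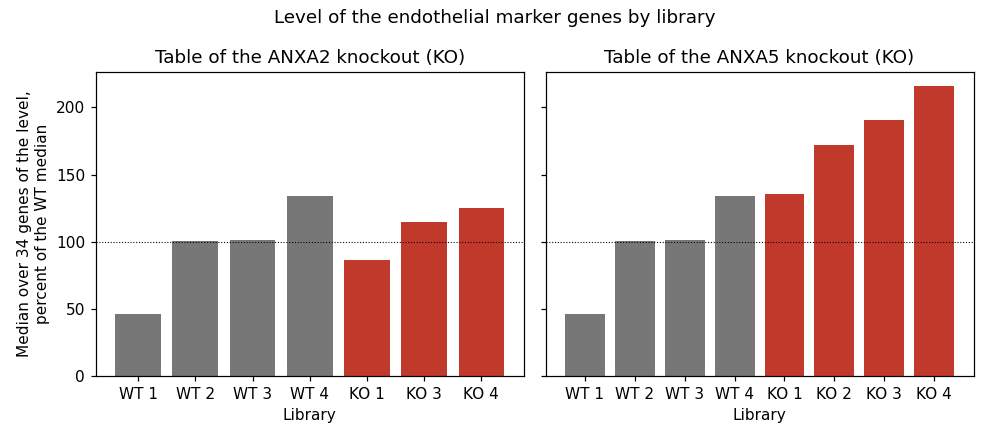
Median over the 34 endothelial marker genes of the level in a library, as a percent of the median wild type (WT) library, for each library of both tables; grey bars are wild type and red bars knockout (KO) libraries. WT library 1 stands at 46.0% in the ANXA5 table, and the 4 ANXA5 knockout libraries at 135 to 216%.

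In the ANXA5 knockout most endothelial markers stood above the wild type, but none passed the test across all genes. The log2 difference was above 0 in 32 of 34 genes, against 52% of all 16224 genes tested, with a median of 0.99 against 0.011 for all genes. It was at least 1, a doubling, in 17 of 34 genes against 1.04% of all genes, and without wild type library 1 in 6 of 34 against 1.03%. With limma on log2 (normalised reads + 1) and Benjamini-Hochberg adjustment over all genes, 0 of 34 genes passed 0.05, where 0.0308% of all genes did, and edgeR passed 0 of 34 as well, where it passed 0.0308% of all genes and 21 of the 34 were higher at its unadjusted p under 0.05 (all genes: 5.97%). At an unadjusted limma p under 0.05 there were 22 higher genes (all genes: 6.48%) and 1 lower gene, Tek (all genes: 5.45%). All 4 knockout libraries lay above all 4 wild type libraries in 13 of 34 genes, against 3.01% of all genes, and below them in 0, against 3.36%.

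The count depended on the tool. DESeq2 on the recovered reads passed 10 of 34 genes, all of them higher, against 1.06% of all genes: Gpihbp1, Flt1, Tie1, Egfl7, Esam, Robo4, Pecam1, Emcn, Ptprb and S1pr1. By the authors' deposited table, 9 of 34 genes, these without S1pr1, had an adjusted p under 0.05, against 0.991% of all genes with such a value. Without wild type library 1 the limma median of the 34 genes was 0.68 and 21 genes were higher at an unadjusted p under 0.05 (all genes: 4.41%).

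**Figure D2:**
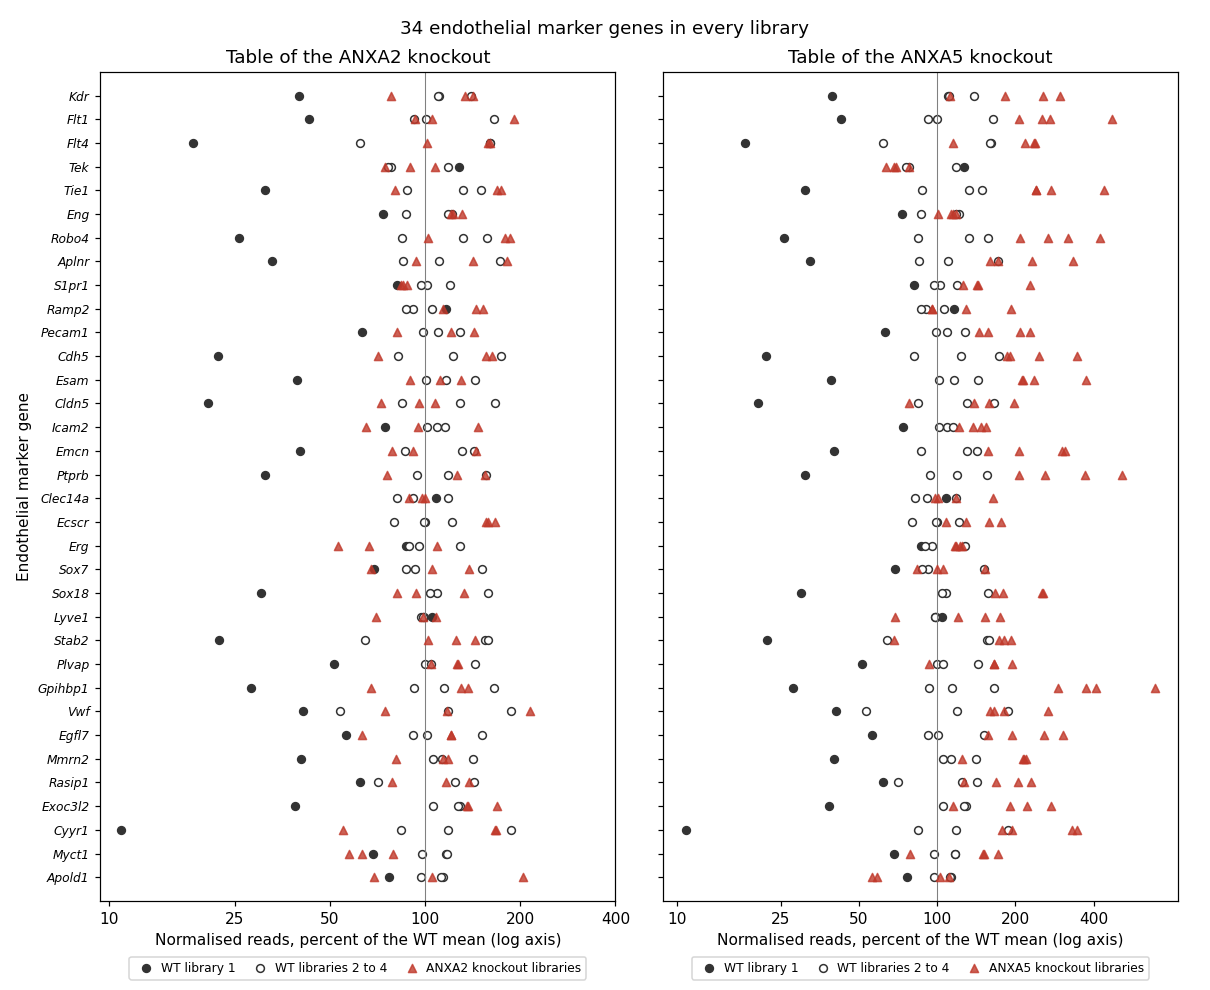
Level of each of the 34 genes in every library as a percent of its wild type mean, on a log axis, with the ANXA2 table on the left and the ANXA5 table on the right; circles are wild type (WT) libraries, the filled one library 1, and triangles knockout libraries. In the ANXA5 table the 4 triangles lie right of all circles for 13 genes, and the filled circle is the leftmost point for 28.

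Of the 10 receptor genes, 9 had a log2 difference above 0 in the ANXA5 knockout (all genes: 52%), with a median of 1.22. At an unadjusted p under 0.05, 7 were higher (all genes: 6.48%). Flt1 (ENSMUSG00000029648.14), the VEGF receptor that also acts as a decoy, stood at 435, 329.8, 405 and 749 normalised reads in knockout libraries 1 to 4, against 68.4, 159.7, 148 and 263 in wild type libraries 1 to 4 (log2 difference 1.66, SE 0.38, limma adjusted p = 0.229). Every knockout library lay above every wild type library. Kdr (ENSMUSG00000062960.11), the main signalling receptor for VEGF-A, stood at 582, 949, 1328 and 1538 against 205, 573, 574 and 721 (log2 difference 1.13, 0.74 without wild type library 1, SE 0.40, limma adjusted p = 0.342). Knockout library 1 lay within the wild type range of Kdr, and the other 3 lay above it. Flt4 (ENSMUSG00000020357.4), the VEGF-C receptor of lymphatic and sinusoidal vessels, stood at 234, 441, 484 and 477 against 37.1, 125, 325 and 323, again with knockout library 1 inside the wild type range (log2 difference 1.39, 0.73 without wild type library 1, SE 0.61, limma adjusted p = 0.41).

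The angiopoietin receptor pair lay on opposite sides of 0. Tie1 (ENSMUSG00000033191.15), the orphan relative that modulates TEK, stood at 559, 556, 639 and 1021 in the knockout and 71.8, 203, 307 and 347 in the wild type, with no overlap (log2 difference 1.75, SE 0.44, limma adjusted p = 0.23). Tek (ENSMUSG00000006386.16) stood at 1701, 1723, 1927 and 1585 against 3159, 1931, 2947 and 1888 (log2 difference -0.48, SE 0.17, limma adjusted p = 0.342). Wild type libraries 1 and 3 were the high ones for Tek, and knockout library 3 lay within the wild type range. Robo4 (ENSMUSG00000032125.22), an endothelial guidance receptor, stood at 245, 313, 374 and 495 against 30.1, 98.9, 156 and 184, groups apart (log2 difference 1.83, SE 0.49, limma adjusted p = 0.259). The apelin receptor gene Aplnr (ENSMUSG00000044338.10) stood at 125, 134, 261 and 181 against 25.5, 86.2, 66.9 and 135, where knockout libraries 1 and 2 lay below the highest wild type library (log2 difference 1.31, 0.86 without wild type library 1, SE 0.45, limma adjusted p = 0.326).

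S1pr1 (ENSMUSG00000045092.9), which steadies junctions and guides lymphocyte exit, stood at 811, 926, 914 and 1463 in the knockout and 523, 766, 656 and 624 in the wild type, groups apart (log2 difference 0.65, SE 0.18, limma adjusted p = 0.273). Knockout library 4 was the highest of the 8. The most abundant receptor genes showed smaller differences. Ramp2 (ENSMUSG00000001240.14) stood at 8256, 4109, 4085 and 5522 against 4969.7, 3897, 4544 and 3719, knockout library 1 standing alone at the top (log2 difference 0.31, 95% interval -0.16 to 0.78). Eng (ENSMUSG00000026814.17) stood at 2069.9, 1832, 2161 and 2099.6 against 1336, 1579.7, 2221 and 2152, all 4 knockout libraries inside the wild type range (log2 difference 0.19, 95% interval -0.16 to 0.54, 0.054 without wild type library 1).

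All 9 genes of junction, adhesion and surface proteins had a log2 difference above 0 in the ANXA5 knockout (all genes: 52%). Of the 9, 7 were higher at an unadjusted p under 0.05 (all genes: 6.48%). In 6 the knockout lay above the wild type without overlap (all genes: 3.01%). Pecam1 (ENSMUSG00000020717.20), the adhesion molecule CD31, stood at 932, 861, 1235 and 1354 normalised reads in knockout libraries 1 to 4 and 374, 649.7, 588 and 764 in wild type libraries 1 to 4 (log2 difference 0.90, SE 0.22, limma adjusted p = 0.23). Esam (ENSMUSG00000001946.15), a tight junction adhesion molecule, stood at 432, 439, 480.2 and 762 against 80.0, 237, 207 and 292 (log2 difference 1.47, SE 0.36, limma adjusted p = 0.23). Both genes lay above the wild type in all 4 knockout libraries, and library 4 was the highest. Ptprb (ENSMUSG00000020154.11), the phosphatase VE-PTP that acts on VE-cadherin and TEK, stood at 485, 385, 692 and 964 against 57.9, 175, 223 and 291 (log2 difference 1.88, SE 0.46, limma adjusted p = 0.23). Emcn (ENSMUSG00000054690.18), the sialomucin endomucin of capillaries and sinusoids, stood at 109, 143, 215 and 210.4 against 27.8, 90.7, 60.4 and 98.9 (log2 difference 1.37, SE 0.39, limma adjusted p = 0.273). These again showed no overlap.

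Cdh5 (ENSMUSG00000031871.10), which encodes VE-cadherin, stood at 220.3, 215, 284 and 398 in the knockout and 25.5, 94.4, 143 and 199.9 in the wild type (log2 difference 1.55, 0.95 without wild type library 1, SE 0.53, limma adjusted p = 0.331). Its groups were apart by a narrow margin. Icam2 (ENSMUSG00000001029.16), an adhesion molecule also found on leukocytes, stood at 295, 334, 375 and 356 against 179.6, 264, 247 and 279, groups apart (log2 difference 0.50, SE 0.15, limma adjusted p = 0.299). Ecscr (ENSMUSG00000073599.11), a surface protein of endothelial migration, stood at 163, 195, 239 and 267 against 151, 183, 121 and 149, with knockout library 1 inside the wild type range (log2 difference 0.50, SE 0.18, limma adjusted p = 0.348). Cldn5, the claudin of endothelial tight junctions, ranged from 141 to 359 in the knockout and 37.1 to 299.8 in the wild type (log2 difference 0.79, 95% interval -0.48 to 2.07, 0.16 without wild type library 1). Clec14a, a lectin-like surface protein of angiogenic vessels, ranged from 234 to 391 in the knockout and 195 to 280.4 in the wild type (log2 difference 0.25, 95% interval -0.16 to 0.66).

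Of the 3 transcription factors, 1 had the ANXA5 knockout above the wild type without overlap (all genes: 3.01%). Sox18 (ENSMUSG00000046470.6), a factor of vascular and lymphatic development, stood at 159, 148, 225 and 228 normalised reads in the ANXA5 knockout and 26.7, 96.2, 92.6 and 139.9 in the wild type, with no overlap (log2 difference 1.28, 0.79 without wild type library 1, SE 0.43, limma adjusted p = 0.326). Erg, the ETS factor of endothelial identity, ranged from 183 to 195 in the knockout and 136 to 201 in the wild type (log2 difference 0.29, 95% interval -0.035 to 0.61). Sox7, a close relative of SOX18, ranged from 153 to 279 in the knockout and 125 to 275 in the wild type (log2 difference 0.17, 95% interval -0.39 to 0.73, 0.014 without wild type library 1). The intervals of Erg and Sox7 include 0, which does not show that their levels were alike.

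Among the sinusoidal and capillary surface genes, Gpihbp1 had the largest log2 difference of all 34 genes. Gpihbp1 (ENSMUSG00000022579.11), which carries lipoprotein lipase to the lumen of capillaries, stood at 218, 169, 238 and 399 in the ANXA5 knockout and 16.2, 66.2, 54.0 and 95.7 in the wild type (log2 difference 2.29, SE 0.48, limma adjusted p = 0.217). The lowest knockout library was above the highest wild type library, and knockout library 4 was the highest of all. Plvap, Stab2 and Lyve1 had smaller differences and overlapping groups. Plvap (ENSMUSG00000034845.7) stood at 1229, 2201, 2581 and 2203 against 681, 1320.2, 1395 and 1907, knockout library 1 lying in the wild type range (log2 difference 0.67, 0.38 without wild type library 1, SE 0.31, limma adjusted p = 0.429). Stab2, the hyaluronan scavenger receptor stabilin-2 of sinusoids, ranged from 339 to 956 in the knockout and 110.1 to 787 in the wild type (log2 difference 0.88, 95% interval -0.44 to 2.21, 0.29 without wild type library 1). Lyve1, a hyaluronan receptor of lymphatic and sinusoidal vessels and of some macrophages, ranged from 48.1 to 121 in the knockout and 68.2 to 73.0 in the wild type (log2 difference 0.29, 95% interval -0.30 to 0.87). Whether Gpihbp1 differed more than these genes was not tested.

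The 3 secreted and matrix genes were each higher in the ANXA5 knockout at an unadjusted limma p under 0.05 (all genes: 6.48%). Egfl7 (ENSMUSG00000026921.21), a matrix protein of growing vessels, stood at 422, 524, 691 and 819 normalised reads against 151, 271, 248 and 406, groups just apart (log2 difference 1.23, SE 0.29, limma adjusted p = 0.23). Mmrn2 (ENSMUSG00000041445.10), a ligand of CLEC14A in the vessel matrix, stood at 258, 444, 448 and 459 against 83.4, 219, 235 and 294, with knockout library 1 apart from the other 3 and inside the wild type range (log2 difference 1.05, 0.66 without wild type library 1, SE 0.36, limma adjusted p = 0.329). Vwf (ENSMUSG00000001930.18), the von Willebrand factor of endothelium and megakaryocytes, stood at 659, 582, 603 and 977 against 149, 195, 433 and 681, where wild type library 4 lay within the knockout range (log2 difference 1.18, SE 0.42, limma adjusted p = 0.342). Of the 5 remaining genes, Rasip1 (ENSMUSG00000044562.13), needed for vessel lumens, stood at 468, 567, 350.0 and 634 against 171, 195, 346 and 395 (log2 difference 0.92, SE 0.28, limma adjusted p = 0.305). Exoc3l2 (ENSMUSG00000011263.17), linked to VEGF receptor signalling, stood at 121, 288, 201 and 235 against 40.6, 112, 136 and 134 (log2 difference 1.07, 0.67 without wild type library 1, SE 0.39, limma adjusted p = 0.353). In both genes 1 knockout library lay inside the wild type range. Cyyr1 (ENSMUSG00000041134.16) was the least abundant gene, at 19.0, 20.7, 36.8 and 35.2 against 1.16, 19.96, 9.003 and 12.6 (log2 difference 1.65, 0.97 without wild type library 1, SE 0.62, limma adjusted p = 0.363). Myct1 ranged from 53.6 to 116 in the knockout and 46.3 to 80.0 in the wild type (log2 difference 0.43, 95% interval -0.18 to 1.04, 0.26 without wild type library 1). Apold1, which is induced in endothelium by stress, ranged from 285 to 562 in the knockout and 388 to 573 in the wild type (log2 difference -0.33, 95% interval -0.87 to 0.20) and was with Tek one of the 2 genes whose difference was below 0.

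Because many of these genes stood higher together in the ANXA5 knockout, their promoters were read. RefSeq promoter sequences of build GRCm38.p6 matched 18 of the 34 genes with 22 promoters, and the 250 bases before each start site were searched on both strands. The letters CAGGAA, a core bound by ETS factors such as ERG, were found in 14 of 22 promoters (63.6%), against 25.7% of all 32851 promoters of the same length. The other ETS core searched, CCGGAA, was found in 2 (9.09% against 12.0%). The SOX core ACAAT was in 8 (36.4% against 27.7%), the GATA core AGATAA in 3 (13.6% against 9.99%) and TATAAA in 4 (18.2% against 12.4%). Egfl7 and Erg each contributed 3 of these promoters. The first transcribed bases matched a GENCODE vM21 transcript of the gene for 16 of the 22, of which 9 held CAGGAA (56.2%), while the start site of the other 6, 5 of them with CAGGAA, was not matched. A match is a description of letters and not a binding site.

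The promoters of 4 genes with separate groups in the ANXA5 knockout (Flt1, Tie1, Robo4 and Emcn) and of Tek, which was lower there, are shown to set their letters side by side. They were chosen after the values were seen. Flt1 lies at chr5:147726012-147726261 (minus strand), Tie1 at chr4:118489850-118490099 (minus strand), Robo4 at chr9:37401722-37401971 (plus strand), Emcn at chr3:137340828-137341077 (plus strand) and Tek at chr4:94739039-94739288 (plus strand). Each is written 5′ to 3′ on the strand of the gene and ends at the base before the start site, and capitals mark CAGGAA or its reverse complement.
Flt1: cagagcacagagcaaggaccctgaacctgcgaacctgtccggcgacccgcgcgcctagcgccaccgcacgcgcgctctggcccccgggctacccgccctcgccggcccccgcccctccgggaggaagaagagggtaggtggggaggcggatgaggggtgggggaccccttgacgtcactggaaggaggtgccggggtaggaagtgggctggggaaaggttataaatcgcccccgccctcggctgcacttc
Tie1: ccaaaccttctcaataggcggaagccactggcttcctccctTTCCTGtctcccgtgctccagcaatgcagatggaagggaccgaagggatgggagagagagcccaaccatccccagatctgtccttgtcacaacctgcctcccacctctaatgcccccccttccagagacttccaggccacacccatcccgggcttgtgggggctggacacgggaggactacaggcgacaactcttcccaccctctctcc
Robo4: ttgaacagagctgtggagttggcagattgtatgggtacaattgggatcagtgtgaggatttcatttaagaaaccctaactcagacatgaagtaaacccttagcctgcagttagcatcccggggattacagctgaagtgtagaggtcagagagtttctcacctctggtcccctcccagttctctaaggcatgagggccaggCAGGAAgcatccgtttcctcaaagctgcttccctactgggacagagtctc
Emcn: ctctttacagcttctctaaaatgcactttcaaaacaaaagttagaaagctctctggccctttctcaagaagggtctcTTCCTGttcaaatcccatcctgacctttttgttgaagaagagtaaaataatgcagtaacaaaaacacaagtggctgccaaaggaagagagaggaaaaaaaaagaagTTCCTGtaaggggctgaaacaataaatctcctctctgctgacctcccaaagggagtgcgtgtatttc
Tek: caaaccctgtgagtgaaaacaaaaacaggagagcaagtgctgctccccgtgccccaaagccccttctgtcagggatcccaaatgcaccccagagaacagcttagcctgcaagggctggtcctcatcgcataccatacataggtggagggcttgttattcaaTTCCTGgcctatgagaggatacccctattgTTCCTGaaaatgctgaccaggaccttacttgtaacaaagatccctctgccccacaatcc

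CAGGAA or its reverse complement stood once in the promoters of Tie1 and Robo4 and at a pair of places in those of Emcn and Tek. Neither CAGGAA nor CCGGAA was found in this window of Flt1, which instead held TATAAA. Other or shorter letters bound by ETS factors, such as GGAA alone, were not searched in any promoter. CAGGAA was present in Tek, lower in the knockout libraries, as well as in genes that were higher.

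In the ANXA2 knockout the endothelial markers overlapped with the wild type in nearly every gene. The log2 difference was above 0 in 27 of 34 genes, against 54.1% of all 16123 genes tested, with a median of 0.30 against 0.023 for all genes. By limma 0 of 34 genes passed an adjusted p of 0.05, where 0.112% of all genes did. At an unadjusted p under 0.05 there were 2 higher genes, Ecscr and Ramp2, a share close to the 4.65% of all genes, and 0 lower ones (all genes: 4.04%). edgeR passed 0 of 34 (all genes: 0.13%), DESeq2 0 (all genes: 0.645%), and the higher genes in the authors' deposited table numbered 0 (all genes: 0.38%). Groups did not overlap in 2 genes, both higher in the knockout, against 4.56% of all genes.

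Ecscr was 1 of these: it stood at 228, 214 and 217 normalised reads in ANXA2 knockout libraries 1, 3 and 4, against 138, 167, 109 and 136 in wild type libraries 1 to 4 (log2 difference 0.69, SE 0.17, limma adjusted p = 0.423). Its 3 knockout libraries were close together and above the whole wild type range, and its value in wild type library 1 was not low. Exoc3l2 was the other, at 131, 162 and 131 against 37.1, 102, 123 and 122 (log2 difference 0.69, 0.28 without wild type library 1, SE 0.40, limma adjusted p = 0.615). There wild type library 1 alone was low. Ramp2 stood at 5932, 5642 and 4431 against 4544, 3560.4, 4114 and 3391, with knockout library 4 inside the wild type range (log2 difference 0.45, SE 0.15, limma adjusted p = 0.523). The lowest difference was that of Myct1, at 35.6, 39.1 and 49.0 against 42.4, 60.5, 72.2 and 72.9 (log2 difference -0.56, SE 0.25, limma adjusted p = 0.573).

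The genes with separate groups in the ANXA5 knockout overlapped with the wild type in the ANXA2 knockout. There only 4.56% of all genes had the knockout above the wild type without overlap, so overlap is not particular to these genes. Gpihbp1 stood at 35.6, 68.4 and 72.5 against 14.8, 60.5, 48.9 and 87.3 (log2 difference 0.33, -0.18 without wild type library 1, SE 0.55, limma adjusted p = 0.874). Flt1 stood at 135, 153 and 279 against 62.5, 146, 134 and 239.8 (log2 difference 0.45, 0.097 without wild type library 1, SE 0.43, limma adjusted p = 0.751), and Tie1 at 169, 356 and 368 against 65.7, 186, 278 and 317 (log2 difference 0.63, 0.15 without wild type library 1, SE 0.52, limma adjusted p = 0.715). In each of these, knockout library 1 was the lowest of the 3 knockout libraries and wild type library 1 the lowest of all. The adhesion genes Pecam1 (log2 difference 0.21, 95% interval -0.39 to 0.81, 0.0040 without wild type library 1), Esam (0.27, -0.63 to 1.17, -0.13 without wild type library 1) and Icam2 (-0.026, -0.65 to 0.60, -0.16 without wild type library 1) had intervals on both sides of 0. S1pr1 was below the wild type mean, with 499, 491 and 512 against 478, 699.6, 594 and 569 (log2 difference -0.21, SE 0.14, limma adjusted p = 0.645). The sinusoidal gene Stab2 ranged from 463 to 654 in the knockout and 101 to 718 in the wild type (log2 difference 0.67, 95% interval -0.71 to 2.05, 0.073 without wild type library 1), Plvap from 1258 to 1530.1 in the knockout and 623 to 1739 in the wild type (0.34, -0.33 to 1.004, 0.048 without wild type library 1) and Tek from 1684 to 2420.4 in the knockout and 1722 to 2888 in the wild type (-0.12, -0.61 to 0.37, 0.0090 without wild type library 1). The other genes had log2 differences between -0.44 (Erg) and 0.89 (Flt4, 0.23 without wild type library 1).

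The positive median in the ANXA2 knockout rested on wild type library 1. Without that library the median log2 difference of the 34 genes was -0.0050 with 16 of 34 above 0, against 0.30 with 27 of 34 when it was kept. In the ANXA5 knockout the median went from 0.99 to 0.68, and 32 of 34 genes remained above 0, the exceptions being Tek and Apold1 in both fits. Of single genes in the ANXA5 knockout, Gpihbp1 had a difference of 1.78 without the library, Ptprb 1.40, Flt1 1.31, Robo4 1.28 and Tie1 1.26. Without the library 0 of 34 genes passed the limma threshold in the ANXA2 knockout (all genes: 0.0941%) and 0 in the ANXA5 knockout (all genes: 0.0243%). In the ANXA2 knockout 2 of 34, Ecscr and Ramp2, were then higher at an unadjusted p under 0.05 (all genes: 3.23%) and 2, S1pr1 and Myct1, lower (all genes: 2.98%). The difference changed sign or moved by over 1.5 times in 28 of 34 genes in the ANXA2 knockout and in 14 of 34 in the ANXA5 knockout.

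**Figure D3:**
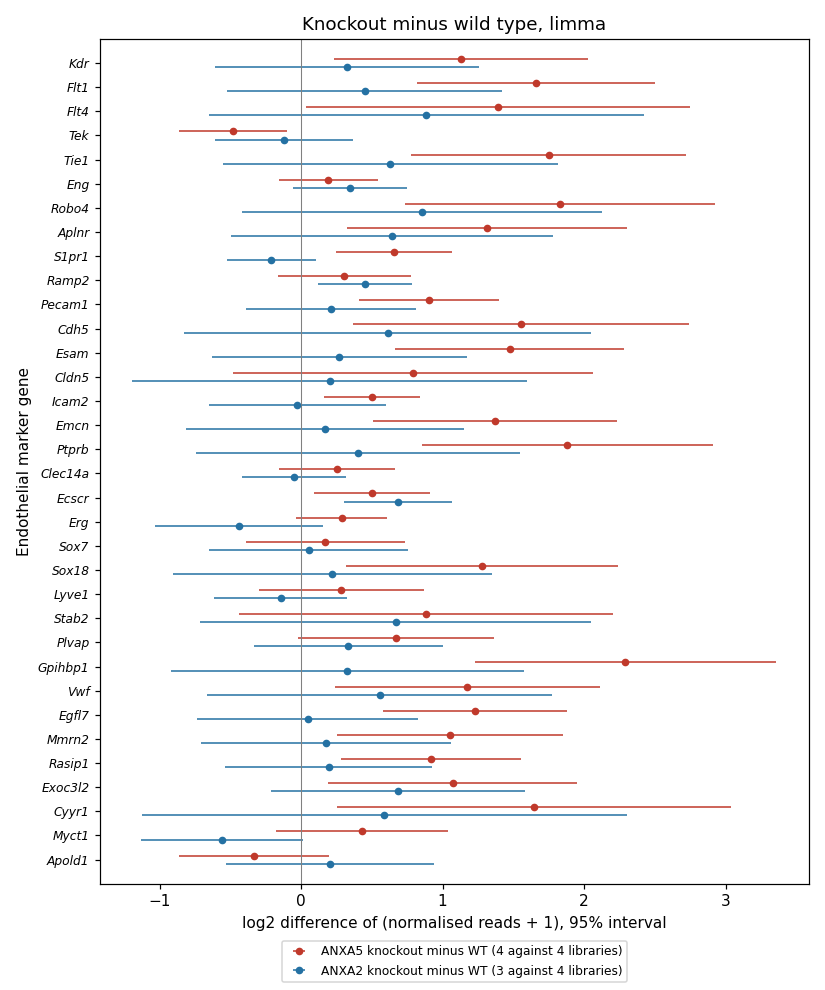
Log2 difference of (normalised reads + 1) between knockout and wild type for each of the 34 genes, with the 95% interval of limma; red is the ANXA5 and blue the ANXA2 knockout. The largest difference is that of Gpihbp1 in the ANXA5 knockout (2.29), and the differences share the 4 wild type libraries.

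**Figure D4:**
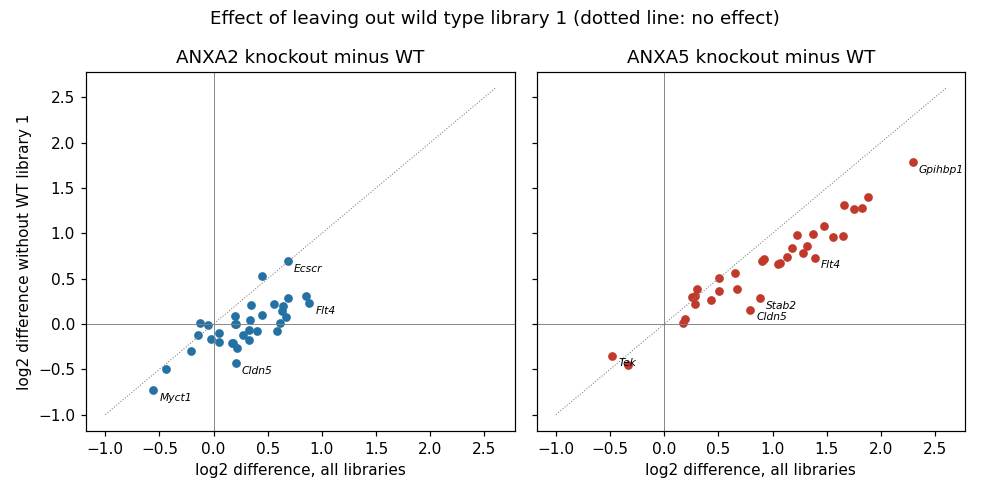
Log2 difference of each of the 34 genes with all libraries (horizontal axis) and without wild type library 1 (vertical axis), for the ANXA2 knockout on the left and the ANXA5 knockout on the right; points below the dotted line became smaller. In the ANXA2 knockout the median goes from 0.30 to -0.0050, in the ANXA5 knockout from 0.99 to 0.68.

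Both comparisons share the wild type, so the knockouts were set against each other directly, in an edgeR quasi-likelihood fit of the reads of all 11 libraries. The 34 genes had a median log2 difference, ANXA2 knockout minus ANXA5 knockout, of -0.69 against -0.0040 for all 16722 genes tested. None passed the threshold (0 of 34, all genes: 0.263%), while 16 of 34 were lower in the ANXA2 knockout at an unadjusted p under 0.05 (all genes: 6.55%) and 0 higher (all genes: 7.36%). S1pr1 had the smallest p (log2 -0.91, edgeR unadjusted p = 0.000327, adjusted p = 0.0793). It was followed by Gpihbp1 (log2 -1.99, edgeR unadjusted p = 0.001, adjusted p = 0.131), Myct1 (log2 -1.06, edgeR unadjusted p = 0.00324, adjusted p = 0.175) and Esam (log2 -1.24, edgeR unadjusted p = 0.00343, adjusted p = 0.177). DESeq2 passed 6 of 34 genes, all lower in the ANXA2 knockout, against 1% of all genes. With wild type library 1 left out of the estimate of the spread, 2 of 34 genes passed edgeR, Esam (edgeR adjusted p = 0.0473) and Gpihbp1 (edgeR adjusted p = 0.0432). The share of all genes that passed in that fit is not given here. Across the fits that each left out 1 of the 11 libraries, 19 to 56 genes passed among all genes tested.

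The genes around these markers were taken from lists of ligands, co-receptors, transcription factors and further endothelial genes, and none of their members passed the limma threshold in either knockout (0 of 13, 18, 16 and 24 tested). Values of these genes are means ± SD in normalised reads, knockout against wild type, over 4 libraries of each group or 3 of the ANXA2 knockout. At an unadjusted limma p under 0.05, 6.48% of all genes were higher in the ANXA5 knockout and 5.45% lower. Of 13 ligands, 1 was higher and 4 lower there at that p, with a median log2 difference of -0.13. Angpt1, the activating ligand of TEK, stood at 891 ± 91.3 against 1220.1 ± 297 (log2 difference -0.43, limma adjusted p = 0.353). The guidance ligand Sema3a stood at 1701 ± 158 against 2386 ± 284 (log2 difference -0.49, limma adjusted p = 0.217), and Angptl4, a secreted inhibitor of lipoprotein lipase, at 3871 ± 639 against 1719 ± 453 (log2 difference 1.19, limma adjusted p = 0.146). Of 18 co-receptors and signal partners, 0 were higher and 2 lower (median -0.0069). They included Calcrl, the partner of RAMP2 in the adrenomedullin receptor, at 2762 ± 359 against 3528 ± 391 (log2 difference -0.36, limma adjusted p = 0.318), and the GTPase gene Rap1a at 2278 ± 237 against 2769 ± 82.4 (log2 difference -0.29, limma adjusted p = 0.302). Both medians lay near 0, and their difference from the median of the endothelial markers (0.99) was not tested.

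Most further endothelial genes (16 of 24) and transcription factors (12 of 16) had a log2 difference above 0 in the ANXA5 knockout, against 52% of all genes. Of 16 transcription factors, 6 were higher and 0 lower at an unadjusted p under 0.05 (all genes: 6.48% and 5.45%, median of the list 0.18). Tal1, a factor of blood and endothelial precursors, stood at 215 ± 8.92 against 124 ± 36.5 (log2 difference 0.85, limma adjusted p = 0.23), and the ETS factor gene Fli1 at 1382 ± 200.5 against 1072 ± 94.3 (log2 difference 0.36, limma adjusted p = 0.305). Of 24 further endothelial genes, 10 were higher and 1 lower (median 0.34). Podxl, the sialomucin podocalyxin of the luminal surface, stood at 415 ± 157 against 101 ± 58.1 (log2 difference 2.19, limma adjusted p = 0.217) and Nos3, the endothelial nitric oxide synthase, at 188 ± 87.7 against 45.2 ± 22.2 (log2 difference 2.097, limma adjusted p = 0.217). Adgrl4, an adhesion receptor of growing vessels, stood at 595 ± 168 against 307 ± 60.6 (log2 difference 0.93, limma adjusted p = 0.217). In the ANXA2 knockout the same 4 lists had medians of 0.15, 0.080, 0.13 and 0.25, with 3, 0, 2 and 0 higher and 1, 2, 0 and 0 lower genes. At that p, 4.65% of all genes were higher in the ANXA2 knockout and 4.04% lower. There Klf4, a flow-induced factor of endothelium that stroma expresses as well, stood at 16368 ± 2554 against 8268 ± 4142 (log2 difference 1.10, limma adjusted p = 0.518).

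Markers of several other cell types also stood above the wild type in the ANXA5 knockout, and their part in the endothelial values was not tested. Over all genes, 52% had a log2 difference above 0 in that knockout and 6.48% were higher at an unadjusted limma p under 0.05. Of macrophage and monocyte markers 13 of 13 had a log2 difference above 0 (median 0.37), 8 of 13 at an unadjusted p under 0.05, and their summed level was 118557 to 149106 in the knockout and 85038 to 129122 in the wild type. Neutrophil markers had 10 of 10 above 0 (median 0.37, 4 of 10 at that p, sum 453642 to 625978 in the knockout and 321005 to 573256 in the wild type). Csf1r, the receptor that defines macrophages, stood at 3098 ± 591 against 2261 ± 161 (log2 difference 0.44, limma adjusted p = 0.277). Megakaryocyte and platelet markers, which share Pecam1 and Vwf with the endothelial genes, had 9 of 10 above 0 (median 0.43, sum 7634 to 10134 in the knockout and 5133 to 9216 in the wild type). Erythroid markers had 9 of 10 above 0 (median 0.51, sum 42076 to 76899 in the knockout and 17976 to 62548 in the wild type), and B and plasma cell markers 6 of 8 (median 0.032, sum 17474 to 26071 in the knockout and 14258 to 18700.4 in the wild type). Markers of blood stem cells and progenitors, which include Tek, had 6 of 10 above 0 (median 0.073, sum 46997 to 53915 in the knockout and 51058 to 79145 in the wild type).

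Among cells of mesenchymal kind, osteoblast markers had 7 of 7 above 0 in the ANXA5 knockout (median 0.65), 6 of 7 at an unadjusted p under 0.05, and a summed level of 10789 to 14988 in the knockout and 6417 to 10278 in the wild type, which did not overlap. Adipocyte markers had 5 of 5 above 0 (median 0.50, sum 6992 to 10412 in the knockout and 6069 to 6948 in the wild type), also without overlap, with Plin1 and Lep not analysed here. Pericyte and smooth muscle markers had 9 of 11 above 0 (median 0.51, sum 7458 to 10963 in the knockout and 4677 to 8877 in the wild type), and stromal markers 6 of 11 (median 0.12, sum 1.61 to 2.29 M in the knockout and 1.33 to 2.07 M in the wild type). Arterial endothelial markers had 13 of 17 above 0 (median 0.49), 7 of 17 at that p. Over all genes, 52% were above 0 and 6.48% higher at that p, so the share of stromal markers above 0 was close to that of all genes. Gja5, the connexin of arteries, stood at 63.9 ± 13.4 against 11.2 ± 6.42 (log2 difference 2.56, limma adjusted p = 0.117) and the Notch receptor gene Notch4 at 188 ± 52.4 against 44.4 ± 22.8 (log2 difference 2.17, limma adjusted p = 0.173). Lymphatic markers had 3 of 5 above 0 (median 0.29), 2 of these being Flt4 and Lyve1. In the ANXA2 knockout the medians were 0.074 for macrophage, 0.20 for neutrophil, 0.34 for megakaryocyte, -0.45 for erythroid, 0.29 for osteoblast, 0.10 for pericyte, 0.19 for stromal, 0.16 for arterial and 0.50 for adipocyte markers, -0.024 for B and plasma cell, -0.052 for progenitor and 0.14 for lymphatic markers. The summed level of pericyte markers did not overlap there, at 8377 to 10309.7 in the knockout and 4276 to 8037 in the wild type, while the sums of the other marker lists did. No marker of these lists passed the limma threshold in either knockout.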

How the data were processed

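RNA of 11 libraries of primary bone marrow mesenchymal stromal cells was measured, and the processed tables were used. Among the tools, the submitters' processing notes list STAR, HTSeq, Trim Galore and DESeq2, all without versions, and as build GRCm39. The signal in the tables the authors deposited is the read count of a gene divided by a size factor of the library. Undoing this scaling returned whole reads for 100% of values (tolerance 0.001), and wild type reads were the same in both tables in 100% of the 18712 shared genes. The log2 fold changes the authors deposited are knockout minus wild type. The deposited p-values and adjusted p-values have the column names of DESeq2 output. The score among the deposited columns, a test statistic per the file headers, was not used. The number of sample columns left out was 0. For the ANXA2 knockout a column shows its group but not its sample.

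Each knockout was compared with the wild type with limma-trend, using log2 of the value plus a pseudocount of 1. A gene was tested where 3 libraries (ANXA2 table) or 4 (ANXA5 table) reached 10. Two-sided p-values were adjusted over all genes tested after Benjamini and Hochberg, with 0.05 as the threshold. Recovered counts of the deposited values were used for edgeR quasi-likelihood and DESeq2 fits and for the joint fit of both knockouts. The versions were limma 3.58.1, DESeq2 1.42.0 and edgeR 4.0.16 under R 4.3.3, and the scripts were tested on simulated data. Alternatives were TMM scaling, edgeR, DESeq2, pseudocounts of 0.5 and 5, no filter, a minimum of 50, leaving out each library and a replicate block.

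The 34 genes and all lists were chosen with earlier results of these data known. Each of the 34 genes is reported. Those with an unadjusted limma p under 0.05 or separate groups in either comparison, and the 4 with the highest mean, are given library by library, and of other lists up to 3 genes by smallest p. Exon lengths came from GENCODE vM21 on GRCm38 and matched 34 genes. Promoters came from RefSeq on GRCm38.p6. Both differ from the build of the submitters and were used for nothing else. Aplnr, Cdh5, Ecscr, Esam, Gpihbp1, Icam2, Lyve1, Mmrn2, Pecam1, Plvap, Ptprb, Ramp2, S1pr1, Sox18, Sox7 and Vwf had no promoter in that table.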

Additional observations from a re-analysis of the deposited data

Results flagged for a closer look

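In groups of 4 libraries, 1 library stood far from the other 3 in 4 of 102 group and gene combinations tested, where chance gives about 1 in 20. The wild type reads are the same in both tables, so that 68 of the combinations are distinct. Esam, the junction adhesion molecule, was high in ANXA5 knockout library 4, at 762 normalised reads against 480.2 in the next library. Stab2, the scavenger receptor of sinusoids, was low in ANXA5 knockout library 1, at 339 against 863 or more. Mmrn2, a vessel matrix protein, was low in the same library, at 258 against 444 or more. Lyve1 was high in wild type library 1, at 73.0 in the ANXA5 table against 69.0 in the next library. In the ANXA2 table, where the same reads are scaled otherwise, Lyve1 stood at 66.7, 63.0, 61.7 and 62.4 in wild type libraries 1 to 4 and library 1 was not set apart by the same limit.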

How the results depend on the processing

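Of the 34 endothelial genes, 0 passed in either knockout under TMM scaling, edgeR, pseudocounts of 0.5 and 5, no filter, a minimum of 50 and, in the ANXA5 knockout, a replicate block. DESeq2 passed 0 genes in the ANXA2 knockout, 10 in the ANXA5 knockout and 6 between the knockouts; the cause was not tested. Over all genes DESeq2 passed 104, 282 and 394, against 18 and 5 by limma and 44 by edgeR. Leaving out each library gave 0 of the 34 genes in both knockouts and 0 to 2 between them, the 2 without wild type library 1. Genes passed overall then numbered 8 to 16 (ANXA2), 4 to 32 (ANXA5, 32 without wild type library 4, 8 without knockout library 3) and 19 to 56 (between knockouts). Genes of the 34 with an unadjusted p under 0.05 numbered 1 to 4, 17 to 25 and 8 to 19 (8 without ANXA2 knockout library 1), and their median log2 difference was -0.0050 to 0.50, 0.68 to 1.23 and -0.91 to -0.51. Without ANXA2 knockout library 4 the ANXA2 median was 0.14. The direction of Cldn5 in the ANXA2 knockout turned to -0.15 with edgeR and -0.13 with DESeq2, and that of Icam2 to 0.023 and 0.027. Leaving out a library turned the direction of 17 genes in the ANXA2 knockout, with log2 differences from -0.069 to 0.60 (Kdr), -0.25 to 0.0098 (Tek), -0.13 to 0.49 (Esam), -0.43 to 0.56 (Cldn5), -0.33 to 0.26 (Icam2), -0.21 to 0.39 (Emcn), -0.081 to 0.70 (Ptprb), -0.14 to 0.034 (Clec14a), -0.18 to 0.33 (Sox7), -0.27 to 0.51 (Sox18), -0.27 to 0.041 (Lyve1), -0.18 to 0.65 (Gpihbp1), -0.20 to 0.35 (Egfl7), -0.21 to 0.39 (Mmrn2), -0.0030 to 0.42 (Rasip1), -0.075 to 1.07 (Cyyr1) and -0.22 to 0.56 (Apold1), and of Ramp2 (-0.039 to 0.35) and Sox7 (-0.37 to 0.13) between the knockouts. In the ANXA5 knockout no gene of the 34 turned. No pairing by the replicate numbers shared by ANXA5 knockout and wild type was visible, which does not show that the samples were unpaired. Same-numbered libraries had correlations of their deviations across genes of 0.0494, -0.0745, -0.252 and 0.067, and the block gave 8 genes passed among all genes. A fit of the ANXA2 knockout blocked by column number, chosen after seeing the data, paired columns 1, 3 and 4 although those numbers are not the titles' own; same-numbered columns correlated at 0.31, 0.0835 and 0.32 in their deviations, and knockout column 3 correlated more with wild type column 4 (0.129) than with its own number. This replicate block gave 22 genes passed among all genes, 0 of the 34 passed and 7 at an unadjusted p under 0.05 (without it 2). Its log2 differences were 0.023 for Icam2 and 0.034 for Clec14a, whose signs changed. No knockout column is numbered 2, so wild type library 2 stood alone in its block. The log2 differences of this fit, with a median of 0.35 over the 34 genes, are thus those without wild type library 2. A block between the knockouts was not run. Only Cyyr1 had fewer than 10 reads in a library.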
